A study of Mus musculus and Homo sapiens with 14 samples.

Results

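BCMA (Tnfrsf17), TACI (Tnfrsf13b) and the BAFF receptor (Tnfrsf13c) are the 3 receptors of the TNF receptor superfamily through which B cells and plasma cells read the cytokines BAFF and APRIL. The genes were chosen by symbol, 3 of 27179 entries in the mouse count table and, in capitals, 3 of 28395 entries in the human one. All 14 RNA sequencing libraries of the series were used, 10 from mouse and 4 from human.

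The series profiled plasma cells and plasma cell tumour lines with and without IRF4, a transcription factor of the plasma cell programme. In the primary cells, bone marrow from donors of genotype Irf4 flox/+ or Irf4 flox/- on the C57BL/6 strain was placed into hosts carrying µMT marrow, a background that makes no mature B cells. Both groups received tamoxifen on days 1, 2, 7 and 8, and donor plasma cells were sorted from the spleen on day 14, giving 2 libraries per genotype. The Cre driver and the age of the animals are not given in the sources used here, and both groups carry the floxed allele, so the control is not a wild-type animal. Cas9 with either a guide against Irf4 (IRF4) or an empty vector was put into MPC-11, a mouse plasmacytoma line (also labelled C57BL/6), and MM.1S, a human myeloma line. After doxycycline these cells were sorted on day 3, with 2 libraries per arm and line, and each line stands for a single tumour. Wild-type C57BL/6 follicular B cells from the spleen and wild-type bone marrow plasma cells had 1 library each. Nothing in the labels says whether 2 libraries of a group came from separate animals or cultures, so a p-value measures the spread between these libraries, which may be technical.

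BAFF binds all 3 receptors, with highest affinity for the BAFF receptor, while APRIL binds BCMA and TACI. The BAFF receptor is the main survival receptor of resting follicular B cells and acts through TRAF3 and the kinase NIK on the alternative NF-kB pathway. BCMA appears as B cells become plasma cells, supports long-lived plasma cells in the bone marrow through MCL1, and is the target of antibody and CAR T cell treatments of myeloma. TACI is found on marginal zone and activated B cells and on plasma cells, restrains B cell numbers and takes part in class switching.

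In the GRCm38 mouse build, Tnfrsf17 lies at chr16:11313812-11320074 on the plus strand, with 815 exonic bases in 3 exon blocks (Entrez 21935). Tnfrsf13b lies at chr11:61126755-61149372 on the plus strand, with 2836 exonic bases in 8 blocks (Entrez 57916). The pseudogene Gm12269 lies within its span on the opposite strand. Tnfrsf13c lies at chr15:82221743-82224369 on the minus strand, with 2048 exonic bases in 3 blocks (Entrez 72049). The human entries carry the Entrez identifiers 608, 23495 and 115650.

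The sequences around the 3 mouse start sites are shown because IRF4 binds DNA through GAAA-type elements, alone or beside an ETS factor, and the comparisons concern its loss. Each window holds 250 bases before and 50 after the RefSeq start (GRCm38.p6), read 5′ to 3′ along the gene's own strand, and capitals mark a match of GAAANNGAA (a shortened interferon response element) or GGAANNGAA (a shortened ETS-IRF composite element) on either strand. All 3 members matched a window. They are chr16:11313559-11313858 (plus strand), chr11:61126505-61126804 (plus strand) and chr15:82224331-82224630 (minus strand), in this order.
Tnfrsf17: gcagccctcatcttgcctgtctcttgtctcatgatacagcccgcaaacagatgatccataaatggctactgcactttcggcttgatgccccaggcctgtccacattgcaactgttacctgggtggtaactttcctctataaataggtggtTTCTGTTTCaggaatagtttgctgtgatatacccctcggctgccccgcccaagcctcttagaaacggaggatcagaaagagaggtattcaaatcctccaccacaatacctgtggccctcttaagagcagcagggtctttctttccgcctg
Tnfrsf13b: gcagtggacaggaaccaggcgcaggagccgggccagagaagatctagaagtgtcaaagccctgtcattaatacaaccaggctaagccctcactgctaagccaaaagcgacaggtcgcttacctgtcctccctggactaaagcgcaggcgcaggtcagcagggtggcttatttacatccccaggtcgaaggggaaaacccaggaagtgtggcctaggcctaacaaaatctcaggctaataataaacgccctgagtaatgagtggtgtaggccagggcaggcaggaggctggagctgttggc
Tnfrsf13c: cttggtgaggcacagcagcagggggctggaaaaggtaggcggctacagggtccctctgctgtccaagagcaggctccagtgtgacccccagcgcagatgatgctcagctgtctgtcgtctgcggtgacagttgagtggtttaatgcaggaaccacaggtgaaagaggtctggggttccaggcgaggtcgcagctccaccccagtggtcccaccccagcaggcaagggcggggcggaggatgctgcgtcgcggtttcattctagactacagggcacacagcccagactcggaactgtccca

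The Tnfrsf17 window held 1 match of GAAANNGAA, on the opposite strand and therefore printed as TTCTGTTTC, from 100 to 92 bases before the start. Neither motif matched in the Tnfrsf13b or Tnfrsf13c window. Of 32851 mouse windows of 300 bases, 8.56% held GAAANNGAA and 8.243% held GGAANNGAA, so a match is common. It describes the letters only, and no binding was measured here.

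Libraries held 18738283 to 27003585 counts in mouse and 19317115 to 21572315 counts in human. Immunoglobulin genes took 52.8 to 73.4% of all counts in splenic plasma cells, 69.8% in bone marrow plasma cells, 16.7 to 32.8% in MPC-11, 3.24% in follicular B cells and at most 2.84% in MM.1S. Relative counts (CPM, counts scaled to a common library size) were therefore scaled by the trimmed mean of M values (TMM), which rests on the bulk of genes, and CPM of the total count are given where they differ. The 10 follicular B cell markers summed to 7568 CPM in follicular B cells against 258 to 893 in splenic and 742 in bone marrow plasma cells, and the 8 plasma cell markers to 33573 to 98573 CPM in splenic and bone marrow plasma cells against 439 in follicular B cells. Irf4 itself stood at 133 and 159 CPM in the libraries labelled flox/- and at 179 and 86.9 CPM in those labelled flox/+, so on this scale its count over the whole gene did not separate the genotypes. By total count it was higher in the libraries labelled flox/-, at 104 and 147 CPM against 88.0 and 37.7 CPM, which goes against the labels, and every direction in the spleen is that of the libraries as labelled. In the lines it did. MPC-11 had 172 and 89.2 CPM under the guide and 296 and 302 CPM in the controls, and IRF4 in MM.1S 141 and 190 CPM against 494 and 433 CPM.

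BCMA separated plasma cells from follicular B cells more sharply than either of the other receptors. On the TMM scale set over all mouse libraries, Tnfrsf17 stood at 177 CPM in bone marrow plasma cells (1958 counts) and at 0 counts in follicular B cells, which allows up to 0.0763 CPM (3 counts). Set against that floor the bone marrow level was at least 2314-fold higher (at least 638-fold by total count), and the 95% exact lower limit of the TMM-scaled ratio, counting error only, was 1880.5. MPC-11 with the empty vector had the highest mean, 190 ± 40.6 CPM (SD, n = 2; 218 and 161), and its 2 libraries enclose the bone marrow value. Below them came plasma cells labelled flox/+ (86.7 and 97.6 CPM), MPC-11 with the guide (74.9 and 67.1) and plasma cells labelled flox/- (54.8 and 45.0). These 3 groups do not overlap on this scale. By total count the order differed. MPC-11 stood highest in both arms, with 315 and 321 CPM for the empty vector and 114 and 104 CPM for the guide, above the 90.9 CPM of bone marrow plasma cells. The splenic groups could not be ordered, with 42.6 and 42.3 CPM in the libraries labelled flox/+ and 42.9 and 41.6 CPM in those labelled flox/-.

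TACI was present in every mouse group and, on the TMM scale, highest in primary plasma cells. Tnfrsf13b stood at 492 CPM in bone marrow plasma cells, 306 and 343 CPM in plasma cells labelled flox/+, 168 and 222 CPM in those labelled flox/-, and 117 CPM in follicular B cells. MPC-11 had much less, 32.9 and 21.4 CPM with the empty vector and 28.1 and 35.6 CPM with the guide, and these 2 groups overlap. Bone marrow plasma cells exceeded follicular B cells 4.203-fold (95% exact interval 4.04 to 4.37, counting error only). By total count the same ratio was 1.16, with 253 against 218 CPM, so the gap between these 2 libraries turned on the scaling. The place of the spleen turned as well: by total count follicular B cells stood above both libraries labelled flox/+ (150 and 149 CPM) and both labelled flox/- (131 and 205 CPM).

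The BAFF receptor was highest in follicular B cells. Tnfrsf13c stood at 478 CPM in follicular B cells (18777 counts), 204 CPM in bone marrow plasma cells, 127 and 110 CPM in plasma cells labelled flox/+, 88.5 and 102 CPM in those labelled flox/-, 61.0 and 41.6 CPM in MPC-11 with the empty vector and 52.3 and 39.5 CPM with the guide. The last 2 groups overlap. By total count follicular B cells (891 CPM) and bone marrow plasma cells (105 CPM) again came first, and the ranges of the spleen (47.9 to 94.3 CPM) and MPC-11 (61.3 to 87.9 CPM) overlap. Within the spleen the direction turned, with 69.3 and 94.3 CPM in the libraries labelled flox/- against 62.2 and 47.9 CPM in those labelled flox/+. Follicular B cells exceeded bone marrow plasma cells 2.34-fold (95% exact interval 2.24 to 2.45, counting error only), or 8.50-fold by total count. Among 12584 genes with at least 10 counts in either of these single libraries, 16.3% were 4-fold or more higher in bone marrow plasma cells and 8.92% were 4-fold or more lower. On the TMM scale BCMA and TACI fall among the former, and the BAFF receptor is within 4-fold. These comparisons have no replicate check.

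**Figure D1:**
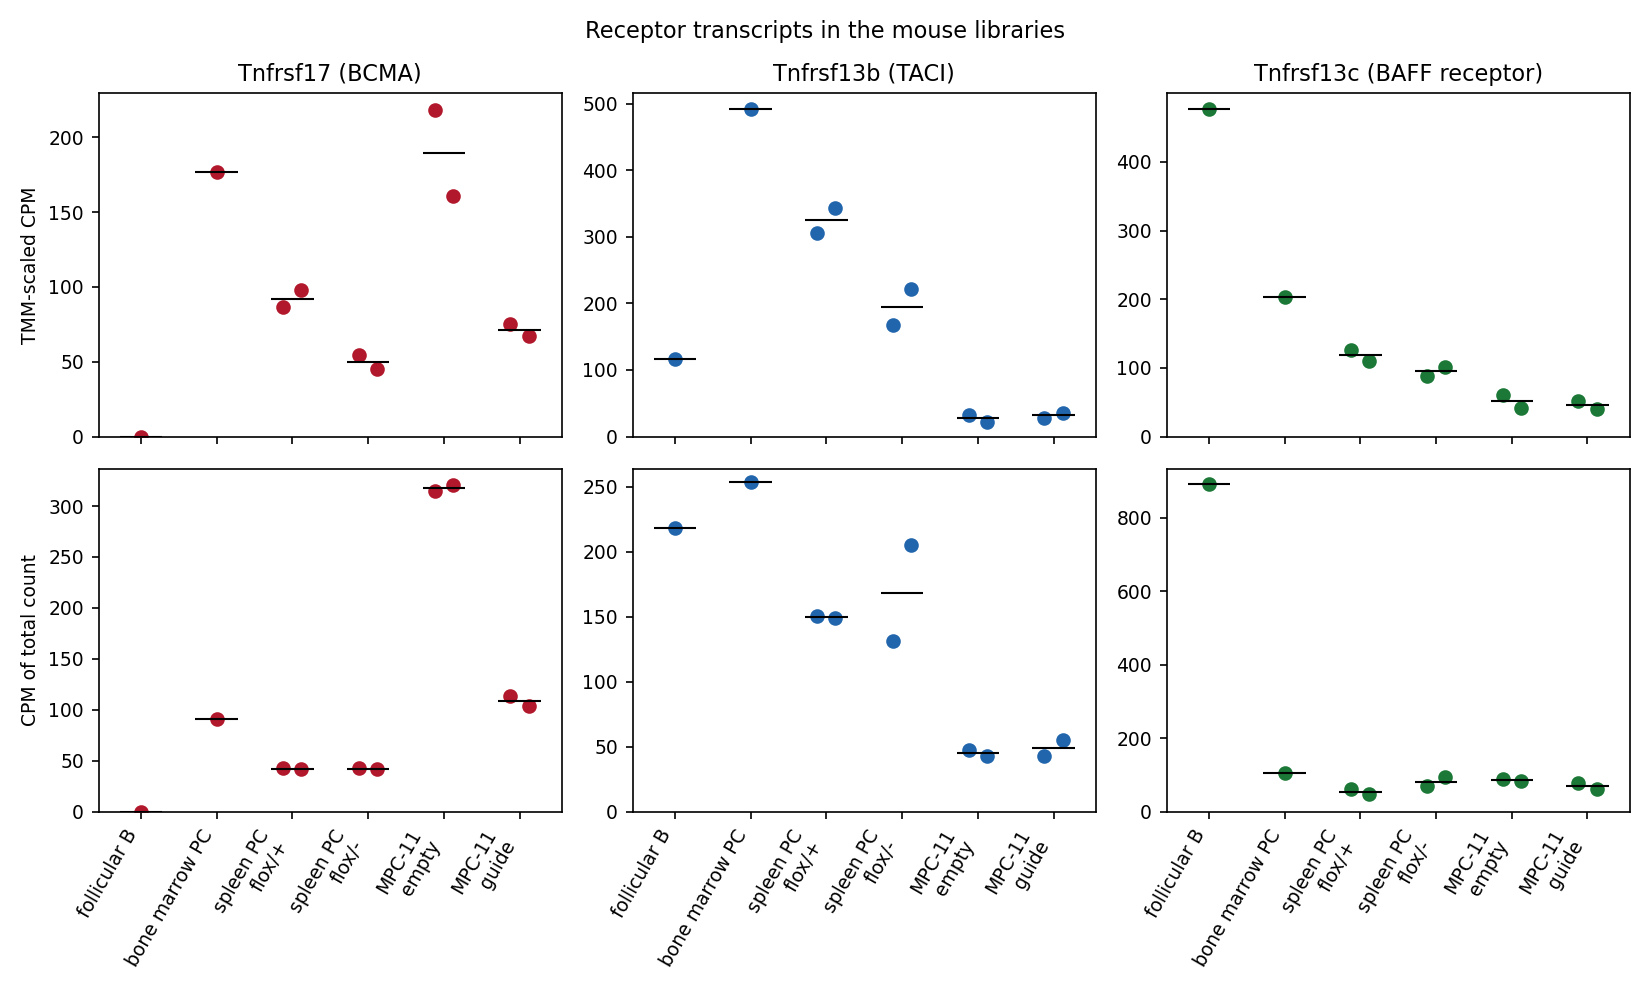
Each point is 1 mouse library and each bar the group mean, for the 3 receptors (columns) on the TMM scale set over all mouse libraries (top row, CPM) and per total count (bottom row, CPM). BCMA is at 0 in follicular B cells and highest in MPC-11 with the empty vector, the BAFF receptor is highest in follicular B cells, and the splenic groups separate for BCMA and TACI in the top row only. For the BAFF receptor the splenic groups separate in both rows, with the libraries labelled flox/- lower in the top row and higher in the bottom row.

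Between genes, levels were compared with the deposited log2 FPKM, a measure per transcript length. In bone marrow plasma cells TACI had the highest value of the 3 (9.995 log2 FPKM), ahead of BCMA (8.55) and the BAFF receptor (7.55). Plasma cells labelled flox/+ had the same order, with means of 9.53, 7.78 and 6.86. In follicular B cells the BAFF receptor (8.77) led TACI (8.17), and BCMA, with no counts, was listed at -3.18. In MPC-11 with the empty vector BCMA led at 8.88, above TACI (6.14) and the BAFF receptor (5.66). MM.1S with the empty vector had BCMA at 9.05 and TACI at 8.48, and 0 counts of TNFRSF13C in all 4 libraries, where 3 counts would be 0.139 to 0.155 CPM of the total. In the deposited values the primary plasma cells thus had more TACI than BCMA, and MPC-11 had less. The TACI minus BCMA gap in bone marrow plasma cells, 1.44, nearly equals the log2 ratio of their raw counts, 1.48. The deposited values thus carry little length difference between these genes, unlike the 2836 and 815 exonic bases given above. The lengths used are not given here, and the order of TACI and BCMA per length in primary plasma cells depends on them.

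In splenic plasma cells all 3 receptors were lower in the libraries labelled flox/- on the TMM scale, and none passed the test over all genes. Tnfrsf17 stood at 34.1 and 28.3 CPM in the libraries labelled flox/- and 55.3 and 60.5 CPM in those labelled flox/+ (scaled within these 4 libraries). The groups do not overlap, and the log2 fold change was -0.89 ± 0.30 (SE, n = 2 and 2), with an edgeR quasi-likelihood p of 0.0292 and a Benjamini-Hochberg adjusted p of 0.321 over 11887 genes. Tnfrsf13b stood at 105 and 139 CPM against 195 and 213 CPM, a log2 fold change of -0.74 ± 0.31 with an edgeR adjusted p of 0.430. Tnfrsf13c stood at 55.1 and 64.0 CPM against 80.8 and 68.5 CPM, a log2 fold change of -0.33 ± 0.29 with an edgeR adjusted p of 0.784. For each receptor the lower control library stayed above the higher flox/- library.

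These counts are to be read against the background. Lower groups without overlap were found for 18.3% of all genes tested here, and an unadjusted edgeR p under 0.05 with a lower value for 3.85%. edgeR called 0% at an adjusted p of 0.05, that is 0 genes, although 1026 higher (8.63%) and 458 lower genes had an unadjusted p under 0.05. DESeq2 called 433 higher and 202 lower genes, the latter 1.7% of those tested, and none of the receptors (adjusted p of 0.169 for Tnfrsf17, 0.236 for Tnfrsf13b and 0.856 for Tnfrsf13c). Scaling to the total count alone moved the median of all genes from 0.09 to 0.98 on the log2 scale, and the share of genes with a higher value in the flox/- libraries from 54.3 to 90.5%. On that scale Tnfrsf17 was at -0.01, Tnfrsf13b at 0.17 and Tnfrsf13c at 0.57. Relative to the median of all genes, Tnfrsf17 was 0.98 below on both scales, Tnfrsf13b 0.83 and 0.81 below, and Tnfrsf13c 0.41 below on both. A change of scaling shifts all genes by nearly the same amount, so this likeness is built in and is no check of the splenic values.

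The libraries labelled flox/- also held more RNA of the markers of other cells. The 12 macrophage and monocyte markers, all with counts in all 4 libraries, summed to 9806 and 991 CPM against 770 and 314 CPM in those labelled flox/+. The 9 T cell markers summed to 135 and 317 CPM against 9.63 and 25.1 CPM, with Cd8a at 0 counts in both control libraries and in 1 flox/- library. The 10 follicular B cell markers summed to 600 and 893 CPM against 258 and 289 CPM, with Pax5 and Cr2 at 0 counts in 1 control library and Ciita in the other. The 8 plasma cell markers were at 36326 and 33573 CPM against 78935 and 98573 CPM. The part of these cells in the receptor values was not tested, and in bulk RNA a smaller share of plasma cells and less receptor RNA per cell cannot be told apart.

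In MPC-11, BCMA was lower with the guide against Irf4 and the other receptors overlapped between the arms. Tnfrsf17 stood at 120 and 109 CPM in the guide libraries and 345 and 264 CPM in the controls. Both guide libraries lie well below both controls, a 2.65-fold lower level with a log2 fold change of -1.41 ± 0.30 (SE, n = 2 and 2). The edgeR quasi-likelihood p was 0.00219, rank 52 of 10670 genes, and the adjusted p 0.449; DESeq2 called the gene with an adjusted p of 9.32e-04. Tnfrsf13b stood at 45.0 and 58.1 CPM against 51.9 and 35.0 CPM, a log2 fold change of 0.25 ± 0.38. Tnfrsf13c stood at 83.8 and 64.4 CPM against 96.3 and 68.2 CPM, a log2 fold change of -0.15 ± 0.34. The edgeR adjusted p of both was 1.00, and their groups overlap.

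As background in MPC-11, 0.0187% of genes (2) were called by edgeR after adjustment. Lower values with an unadjusted edgeR p under 0.05 were found for 2.56% of genes (higher for 3.49%), DESeq2 called 0.459% lower, and 16.5% were lower without overlap. BCMA is in each of the last 3 groups. Scaling to the total count moved the median of all genes from -0.02 to -0.18 and left Tnfrsf17 1.39 and 1.36 below that median. Most markers of other cells were at 0 counts here: Pax5 and Ciita in all 4 libraries, and C1qa, C1qb, C1qc, Csf1r and Adgre1 as well, with 2 or 3 of the 12 macrophage and monocyte markers having any counts. The sum of those 12 was still 1009 to 1418 CPM, so in this line it is not specific to macrophages. Scaled within this comparison, Cd68 stood at 1525 to 2100 CPM and Hmox1 at 95.7 to 172 CPM. Bank1, of the follicular B cell list, stood at 35.5 to 55.5 CPM.

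In MM.1S BCMA was lower with the guide against IRF4, and TACI by a smaller step. TNFRSF17 stood at 170 and 138 CPM in the guide libraries and 442 and 638 CPM in the controls, so that the groups do not overlap and the level was 3.50-fold lower. The log2 fold change was -1.81 ± 0.25 (SE, n = 2 and 2), with an edgeR p of 2.16e-04 (rank 17 of 12696 genes) and an adjusted p of 0.162. DESeq2 called it with an adjusted p of 2.39e-10, as did edgeR without the filter on low counts (adjusted p of 1.35e-05). TNFRSF13B stood at 372 and 291 CPM against 515 and 444 CPM, again without overlap. Its log2 fold change was -0.53 ± 0.21, with an edgeR p of 0.0373, an adjusted p of 0.451 and a DESeq2 adjusted p of 0.177. TNFRSF13C had no counts and was not tested.

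In MM.1S edgeR called 0.00788% of genes (1) after adjustment, 4.58% were lower with an unadjusted edgeR p under 0.05, DESeq2 called 1.41% lower, and 18.9% were lower without overlap. BCMA is in the last 3 of these sets, and TACI in the sets of unadjusted p and of groups without overlap. PAX5, MS4A1, C1QA, C1QB and C1QC were at 0 counts in all 4 libraries. Other markers of the B cell, macrophage and T cell lists had counts, such as CR2 (33.6 to 58.6 CPM), ADGRE1 (17.0 to 27.4 CPM) and LAT (69.2 to 79.3 CPM). The macrophage and monocyte list summed to 97.1 to 145 CPM and the T cell list to 90.9 to 106 CPM, so neither sum is specific to those cells in this line.

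**Figure D2:**
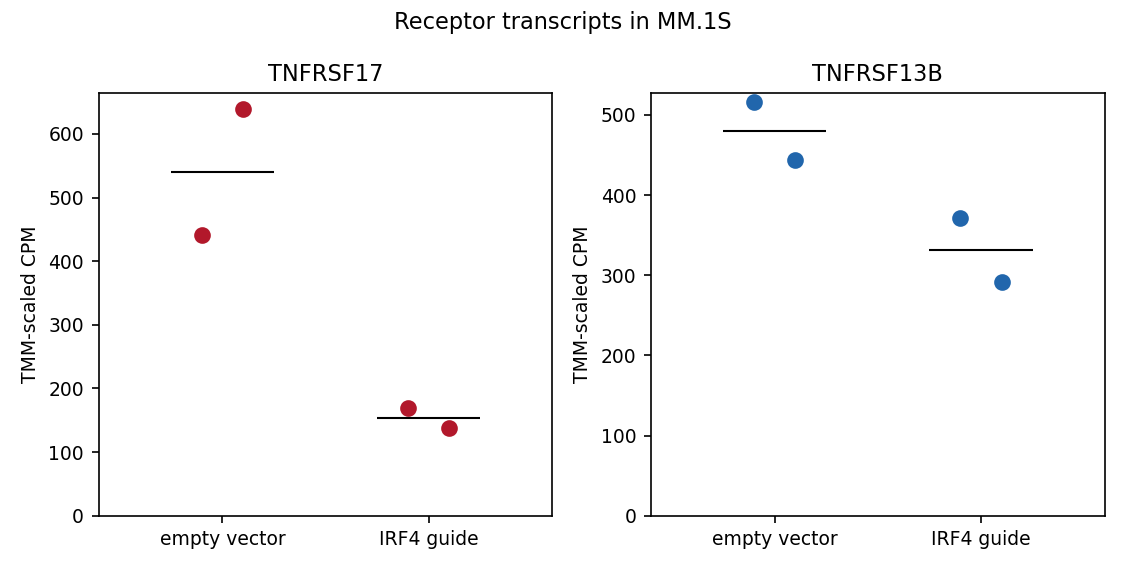
Each point is 1 MM.1S library and each bar the mean of 2, in TMM-scaled CPM, for TNFRSF17 (BCMA, left) and TNFRSF13B (TACI, right). The BCMA libraries with the guide sit at 138 and 170 CPM, under the 442 and 638 CPM of the empty vector, and TACI is lower by a smaller step.

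**Figure D3:**
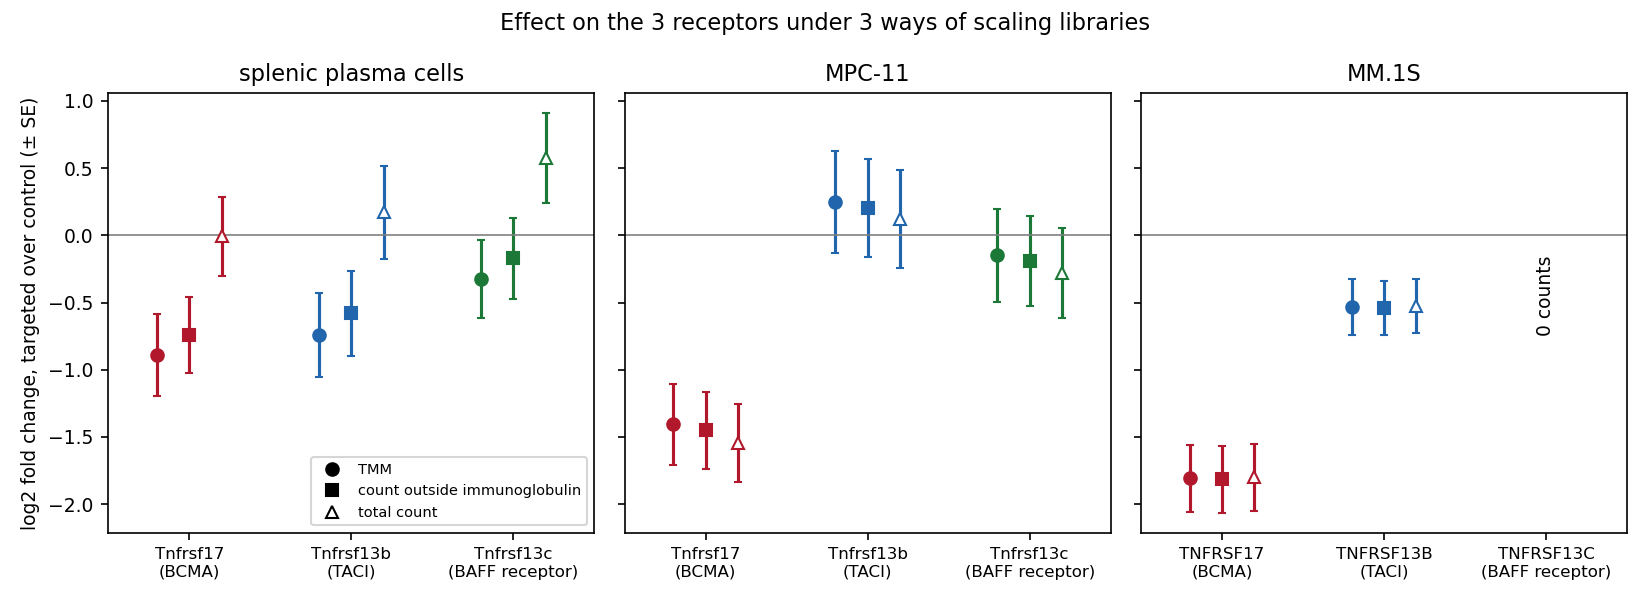
Log2 fold change with its standard error for each receptor in the 3 comparisons, under TMM scaling (circles), scaling to the count outside immunoglobulin genes (squares) and scaling to the total count (open triangles). BCMA in both lines stays between -1.41 and -1.82 under these scalings, while the splenic values move up to or past 0 with the total count.

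The receptors were also compared inside each library, where no scaling enters. TACI counts per BCMA count were 3.53 and 3.51 in plasma cells labelled flox/+, 3.06 and 4.93 in those labelled flox/-, and 2.79 in bone marrow plasma cells. Every primary plasma cell library thus had more TACI than BCMA counts, and in the spleen the 2 groups overlap (1.10-fold between the means of the log2 ratios, exact permutation p = 1, two-sided). In MPC-11 the ratio was 0.151 and 0.133 with the empty vector and 0.375 and 0.531 with the guide, 3.16-fold higher. In MM.1S it was 1.17 and 0.695 in the controls and 2.19 and 2.10 in the guide libraries, 2.38-fold higher. In both lines every guide library exceeded every control, with an exact permutation p of 0.333, which is the smallest that 2 against 2 libraries allow.

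BAFF receptor counts per TACI count were 4.08 in follicular B cells and 0.414 in bone marrow plasma cells. In the spleen they ran from 0.322 to 0.527, and in MPC-11 from 1.11 to 1.94. Follicular B cells and all 4 MPC-11 libraries thus had more BAFF receptor than TACI counts, and every primary plasma cell library had fewer. Counts are not corrected for length. In the deposited log2 FPKM TACI was above the BAFF receptor in all 4 MPC-11 libraries, by 0.434 to 1.196. It was below the BAFF receptor in follicular B cells, by 0.60. The order in MPC-11 rests on the lengths behind the deposited values, which are not given here. With the exonic bases given above (2836 for Tnfrsf13b, 2048 for Tnfrsf13c), the BAFF receptor would stay above TACI per length in MPC-11.

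**Figure D4:**
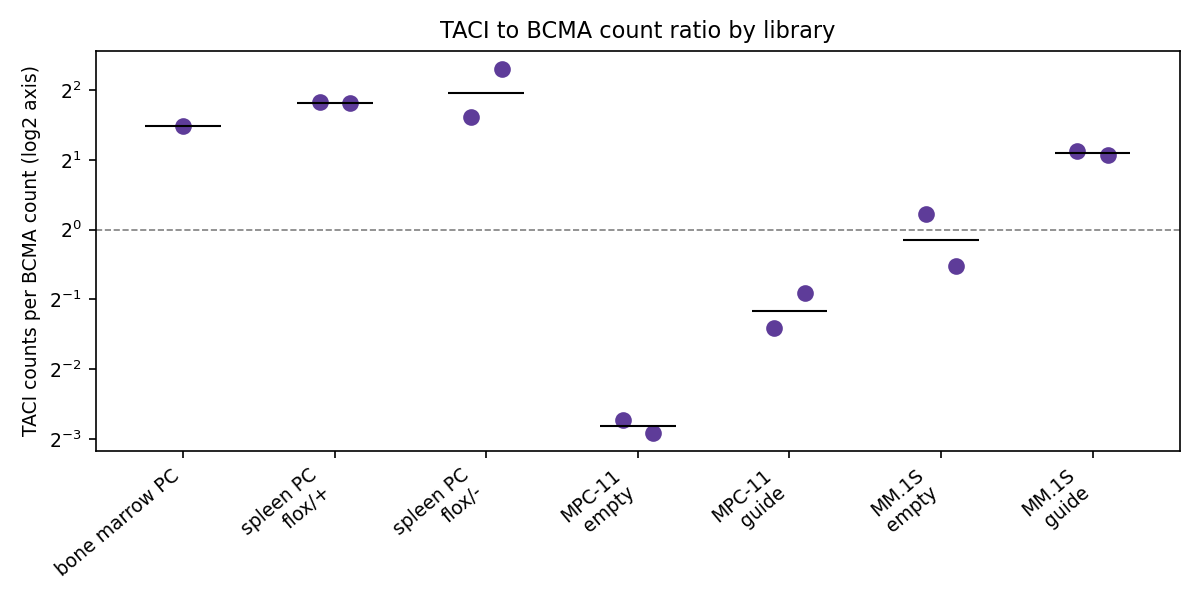
TACI counts per BCMA count in each library (points, log2 axis), with the mean of the log2 ratios as a bar; the dashed line marks equal counts. Primary plasma cells lie between 2.79 and 4.93, MPC-11 below 1 in both arms and higher with the guide, and MM.1S at 0.695 and 1.17 with the empty vector and above 2 with the guide.

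The effects in the spleen and in MPC-11 were compared in 1 edgeR fit of 8 libraries and 12993 genes. The spleen effect minus the MPC-11 effect was 0.52 ± 0.40 for Tnfrsf17 (edgeR adjusted p = 1.00), -0.98 ± 0.46 for Tnfrsf13b (edgeR adjusted p = 0.856) and -0.17 ± 0.44 for Tnfrsf13c. By total count the Tnfrsf17 difference was 1.54 ± 0.35 (edgeR adjusted p = 0.167), so for BCMA the value turned on the scaling. A difference between the spleen and MPC-11 did not pass the test for any receptor on either scale.

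The ligands had few counts in these libraries. Tnfsf13b, which encodes BAFF, had 213 and 79 counts in the libraries labelled flox/-, 27 and 17 in those labelled flox/+, 14 in follicular B cells, 27 in bone marrow plasma cells and 0 in all 4 MPC-11 libraries. The difference in the spleen was 1.87 ± 0.91 on the log2 scale (edgeR adjusted p = 0.522). Tnfsf13, which encodes APRIL, had 104 and 7 counts against 8 and 2 in the spleen, and Tnfsf12, its neighbour TWEAK, 39 and 0 against 3 and 0. The flox/- library with the most of all 3 ligands is replicate 1, which also has the most macrophage marker RNA (9806 CPM); the part of those cells in the ligand values was not tested. In MM.1S, TNFSF13 had 213 and 207 counts with the empty vector and 129 and 131 with the guide (log2 fold change of -0.70 ± 0.41, edgeR adjusted p = 0.676).

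Syndecan-1, which carries the heparan sulfate that APRIL binds on plasma cells, was lower without overlap in both mouse comparisons on the TMM scale. So was BCMA, and so were 18.3% of all genes tested in the spleen and 16.5% in MPC-11. By total count the splenic BCMA groups overlap, with a log2 fold change of -0.01. Sdc1 stood at 244 and 295 CPM in the libraries labelled flox/- against 632 and 627 CPM in those labelled flox/+ (log2 fold change of -1.22 ± 0.31, edgeR adjusted p = 0.279, DESeq2 adjusted p = 0.00216, and -0.32 by total count). With the Irf4 guide MPC-11 had it at 383 and 296 CPM against 694 and 671 CPM (-1.01 ± 0.29, edgeR adjusted p = 0.549, DESeq2 adjusted p = 0.0313). In MM.1S the SDC1 groups overlap, with 796 and 820 CPM against 785 and 949 CPM (-0.10 ± 0.18). Of the 9 genes of the co-receptor and heparan sulfate list, edgeR called none in any comparison. DESeq2 called Sdc1 lower and Ndst1, a heparan sulfate sulfotransferase, higher in the spleen (16.4 and 21.8 CPM against 5.85 and 1.96 CPM), and Sdc1 alone in MPC-11. Over all genes DESeq2 called 433 higher and 202 lower of 11887 in the spleen, and 49 lower of 10670 in MPC-11.

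Of the sheddase and gamma-secretase genes, which cut TACI and BCMA from the cell surface, edgeR called none of the 8 tested in each comparison. PSEN2, a catalytic subunit of gamma-secretase, was called by DESeq2 in MM.1S, at 113 and 155 CPM with the guide against 80.1 and 53.2 CPM (log2 fold change of 1.01 ± 0.29, edgeR adjusted p = 0.337, DESeq2 adjusted p = 0.0402). Over all genes DESeq2 called 195 of 12696 higher in MM.1S. The list's median was 0.44 in the spleen, 0.15 in MPC-11 and 0.01 in MM.1S, beside medians of all genes of 0.09, -0.02 and 0.01; in MPC-11 it turned to -0.02 with the total count, where the median of all genes was -0.18.

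Adaptors and regulators of NIK, the TRAF, cIAP and related genes, had no edgeR or DESeq2 call in any comparison (12 tested in each mouse comparison, 13 in MM.1S, where 1 higher and 1 lower gene had an unadjusted edgeR p under 0.05). Higher values were found for 10 of 12 in the spleen, 10 of 12 in MPC-11 (7 by total count, against 36.2% of all genes) and 10 of 13 in MM.1S, with medians of 0.30, 0.44 and 0.13. Of all genes tested 54.3%, 48.5% and 50.7% were higher, with medians of 0.09, -0.02 and 0.01. By total count all 12 were higher in the spleen, where 90.5% of all genes were. In MM.1S, 5.42% of all genes were higher and 4.58% lower with an unadjusted edgeR p under 0.05. In the spleen Traf1, an NF-kB target, was at 1.04 ± 0.46 and Traf5 at -0.56 ± 0.32 on the log2 scale, the latter turning to 0.35 with the total count. Birc3, a cIAP, was at 0.62 ± 0.32 in MPC-11 (112 and 89.6 CPM against 70.1 and 60.6 CPM).

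The IKK and NF-kB genes downstream had a median of 0.82 in the spleen, against 0.09 for all genes. Of 13 tested, 6 had an unadjusted edgeR p under 0.05, all higher, against 8.63% of all genes, none was called after adjustment, and DESeq2 called Ikbkb and Bcl3. Over all genes DESeq2 called 433 of 11887 higher here. Ikbkb, the catalytic kinase of the classical pathway, stood at 25.9 and 35.0 CPM in the libraries labelled flox/- against 10.2 and 8.47 CPM (1.71 ± 0.38, edgeR adjusted p = 0.275, DESeq2 adjusted p = 0.00912). Bcl3, a partner of the p50 and p52 subunits, was at 24.5 and 19.6 CPM against 8.13 and 5.14 CPM. These genes are also used by macrophages and T cells, whose markers were higher in the same libraries; their part was not tested.

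In the lines the same list had medians of 0.22 in MPC-11 and 0.11 in MM.1S, beside -0.02 and 0.01 for all genes. Nfkbia, the inhibitor induced by NF-kB itself, was at 459 and 443 CPM with the guide against 283 and 272 CPM in MPC-11 (0.70 ± 0.27, edgeR adjusted p = 0.779), and NFKBIA at 146 and 111 CPM against 91.9 and 69.4 CPM in MM.1S (0.67 ± 0.25, edgeR adjusted p = 0.442). Nfkbie, another inhibitor, was lower in MPC-11, at 5.99 and 7.20 CPM against 27.3 and 22.5 CPM (-1.92 ± 0.50, edgeR adjusted p = 0.520), and DESeq2 called it (adjusted p = 0.0439).

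Of the survival and kinase genes reached by these receptors (the MCL1 and BCL2 family, AKT, PIM, p38 and others), edgeR called none of the 15 tested in the spleen, 12 in MPC-11 or 13 in MM.1S. An unadjusted edgeR p under 0.05 was found for 2 higher genes in the spleen, 1 higher in MPC-11, and 1 higher and 1 lower in MM.1S. Over all genes, 8.63%, 3.49% and 5.42% were higher with such a p, and 4.58% lower in MM.1S, so these counts are near the background. DESeq2 called 1 gene in these comparisons, Bcl2a1a in the spleen, which was at 7.64 and 0.596 CPM in the libraries labelled flox/- and at 0 counts in the controls. Over all genes DESeq2 called 433 of 11887 higher in the spleen. Higher values were found for 11 of 15 in the spleen, 8 of 12 in MPC-11 and 10 of 13 in MM.1S, with medians of 0.52, 0.38 and 0.16. Of all genes tested 54.3%, 48.5% and 50.7% were higher, with medians of 0.09, -0.02 and 0.01. By total count all 15 were higher in the spleen, where 90.5% of all genes were. Akt1 stood at 105 and 105 CPM in the libraries labelled flox/- against 53.5 and 54.1 CPM (0.96 ± 0.28, edgeR adjusted p = 0.285). In MPC-11 Pik3cd was higher with the guide, at 34.8 and 60.3 CPM against 16.0 and 23.3 CPM (1.27 ± 0.45), as was Mapk14 (1.01 ± 0.43). Pim2, a kinase of myeloma growth, was lower there, at 48.0 and 46.1 CPM against 88.1 and 63.5 CPM (-0.69 ± 0.34). SYK was at 58.0 and 66.9 CPM against 93.0 and 99.6 CPM in MM.1S (-0.62 ± 0.21, edgeR adjusted p = 0.390). PIK3CA was higher in MM.1S, at 39.3 and 33.3 CPM against 24.1 and 17.5 CPM (0.81 ± 0.29). Akt1, Pik3cd, Mapk14, Pim2, SYK and PIK3CA did not pass after adjustment.

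The other TNF receptors mostly pointed the opposite way from BCMA. In the spleen 13 of 16 tested were higher in the libraries labelled flox/-, with a median of 1.62, and in MM.1S 9 of 11 were higher with a median of 0.72. Of all genes tested, 54.3% were higher in the spleen (90.5% by total count), 48.5% in MPC-11 and 50.7% in MM.1S. Several of these receptors are also made by macrophages and T cells, whose markers were higher in the same splenic libraries (9806 and 991 CPM against 770 and 314 CPM for macrophages, 135 and 317 CPM against 9.63 and 25.1 CPM for T cells), and their part was not tested. Tnfrsf1b, the second TNF receptor, was at 66.7 and 33.9 CPM against 9.12 and 4.71 CPM in the spleen (2.86 ± 0.55, edgeR adjusted p = 0.275, DESeq2 adjusted p = 1.67e-04), and Tnfrsf9, a T cell co-stimulator, had 66 and 618 counts against 0 and 0. FAS, the death receptor, was at 19.8 and 21.2 CPM with the guide in MM.1S against 5.32 and 4.93 CPM (2.00 ± 0.35, edgeR adjusted p = 0.220, DESeq2 adjusted p = 0.00134). With the Irf4 guide, 7 of 9 were higher in MPC-11 with a median of 0.40, and neither tool called any. edgeR called none of these receptors in any comparison, and 4 in the spleen and 2 in MM.1S, all higher, had an unadjusted p under 0.05, against 8.63% and 5.42% of all genes. DESeq2 called 3 of these receptors higher in the spleen and 1 in MM.1S, beside 433 of 11887 and 195 of 12696 of all genes.

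**Figure D5:**
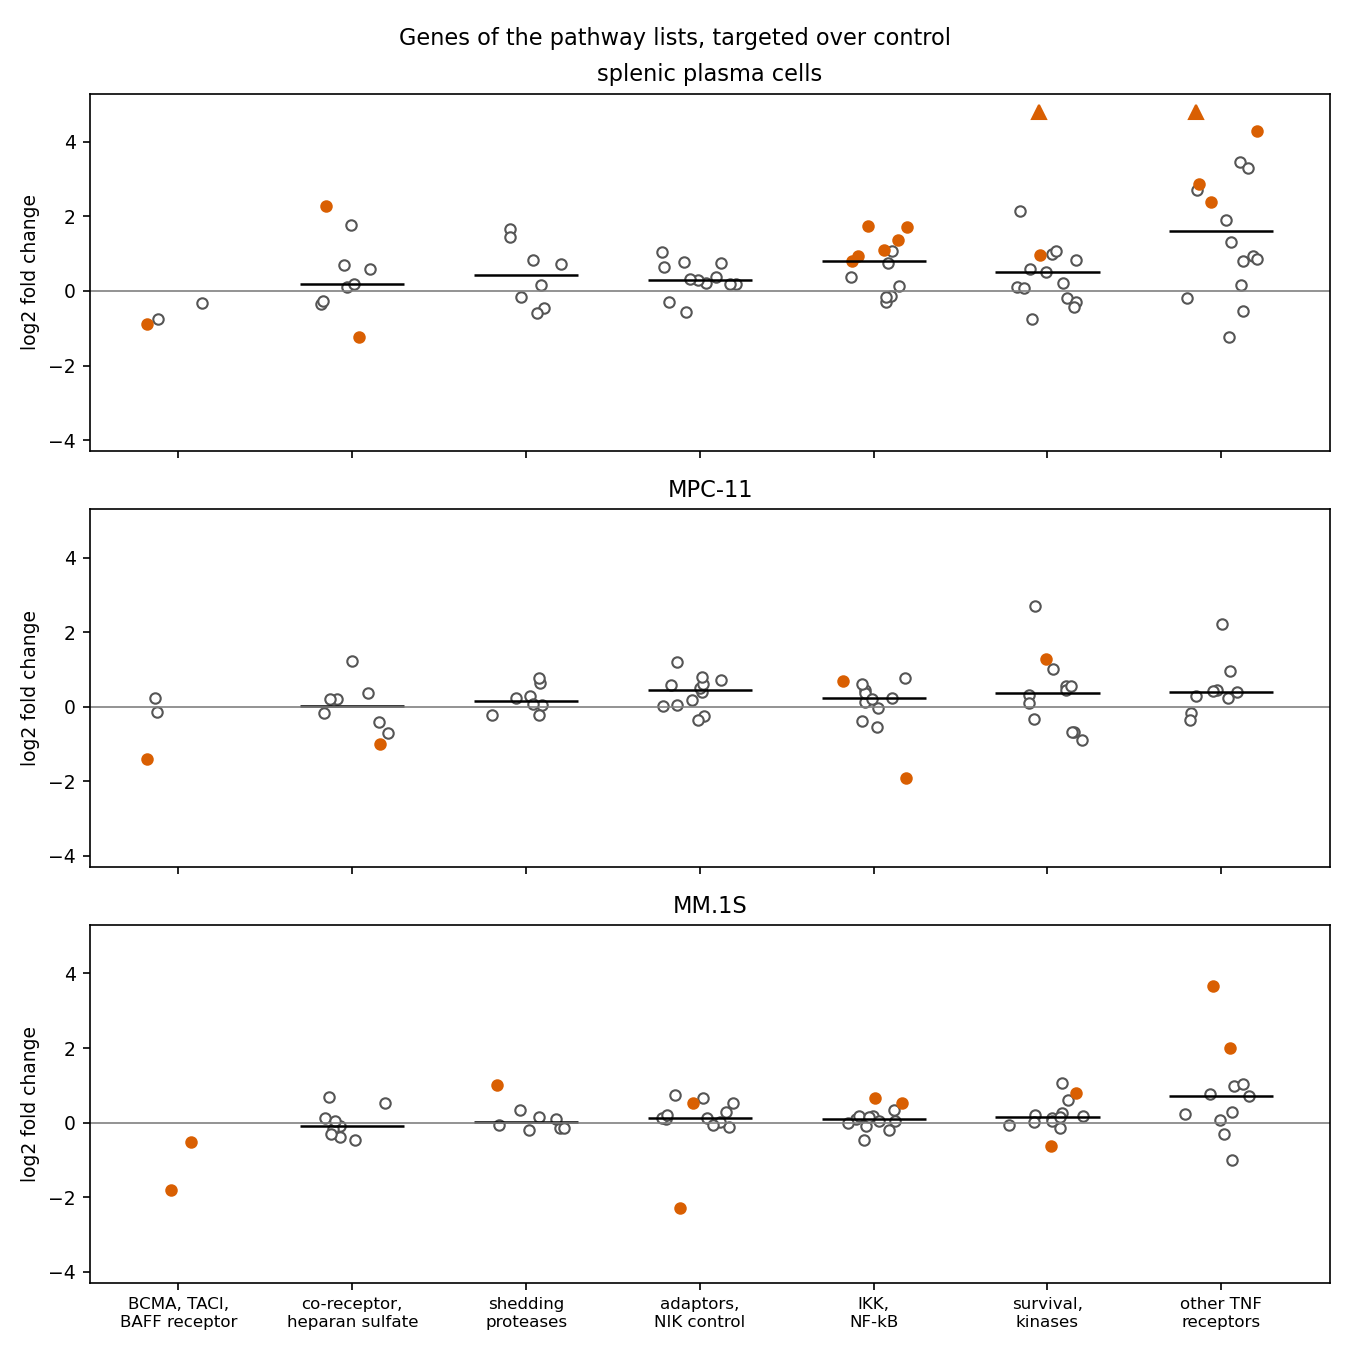
Log2 fold change of every tested gene of the lists in the 3 comparisons, targeted over control; filled points have an unadjusted edgeR p under 0.05, bars mark list medians, and triangles mark 2 genes above the axis, Bcl2a1a and Tnfrsf9, that have 0 counts in both controls. BCMA is the lowest of BCMA, TACI and the BAFF receptor in each panel (the BAFF receptor was not tested in MM.1S). Tnfrsf18, of the other TNF receptors, is lower still in the spleen (-1.23). Of the lists drawn the other TNF receptors have the highest median in the spleen and in MM.1S.

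Across the 10 mouse libraries, the genes whose log2 CPM were most like each receptor were found by Pearson's r among 13422 genes. Tnfrsf17 was most like Eaf2 (0.99), Maged1, Asns, Krt222 and Mocos (0.98), all at 1.58 CPM or less in follicular B cells. Asns, asparagine synthetase, had 195 CPM in bone marrow plasma cells and 0 in follicular B cells. Tnfrsf13b was most like the immunoglobulin variable genes Igkv6-20, Ighv1-36, Ighv8-2 and Ighv1-49 and Tmem181a (all 0.99). Tnfrsf13c was most like Slc25a11 (0.95), Iah1, Ttc7, Cybc1 and Bloc1s6 (0.93). Among the receptors r was -0.07 for Tnfrsf17 with Tnfrsf13b, -0.71 for Tnfrsf17 with Tnfrsf13c and 0.67 for Tnfrsf13b with Tnfrsf13c. These values describe 6 groups of cells that share sorts and lines, so the libraries are not independent. They are given on the TMM scale alone, and the order of the groups above differed by total count.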

How the data were processed

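RNA was reverse transcribed and made into Nextera libraries, per the labels' protocols. The authors deposited whole-number counts per gene, 1 table per species, and log2 FPKM per library; reads were handled with Subread 1.6.0 and featureCounts, and limma was used, per the submitters' processing notes. Whether counting used strand is not given in the sources used here. The highest log2 value is the same in 7 of 10 deposited mouse tables, so a normalization between libraries may have been applied. Entries without a symbol (at most 0.306% of counts) were left out of totals and tests, and 0 columns of the count tables were left without a sample. The 2 flox/+ count columns share a name and carry no replicate number. The 4 libraries of a comparison, and no others, entered its fit in edgeR 4.0.16 (R 4.3.3): filterByExpr with a minimum count of 10, TMM, quasi-likelihood test, Benjamini-Hochberg adjustment over all genes tested, threshold 0.05; the standard error is the log2 fold change over the root of F. DESeq2 1.42.0 (on the same filtered genes) and limma 3.58.1 (on log2 FPKM) were alternatives. CPM in comparisons were scaled within the comparison, CPM of levels and markers over all libraries of a species. Genes named are the receptors and genes among the 3 with the smallest p per list and comparison, not all of which are printed. Also named are the 5 most alike by log2 CPM (prior count 2) with at least 10 counts in 2 libraries. SDC1 in MM.1S, Tnfrsf18 in the spleen and the untested ligands were named after their values were seen. The receptors and lists were chosen with earlier results of these data known. Libraries of a group differed beyond counting error; intervals and floors of 3 counts cover counting error only. Windows around start sites are from RefSeq (GRCm38.p6). Scripts were tested on simulated counts.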

Additional observations from a re-analysis of the deposited data

How the results depend on the processing

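Scaling to the total count alone reversed Tnfrsf13b (0.17) and Tnfrsf13c (0.57) in the spleen, and their spleen minus MPC-11 differences (0.048 and 0.85), and moved that of Tnfrsf17 from 0.52 to 1.54; it also moved the bone marrow over follicular B cell ratio to 638 (Tnfrsf17), 1.16 (Tnfrsf13b) and 0.118 (Tnfrsf13c), while scaling to the count outside immunoglobulin genes gave 3.71 and 0.377 for the last 2. That scaling, and both alternatives for this ratio, were chosen after seeing the data. Within each comparison of targeted and control libraries the receptors moved little relative to the median of all genes. This holds by construction when only the scaling changes, and is no check of the values. No such median is given here for the spleen minus MPC-11 differences or the bone marrow ratio. Leaving out each library in turn, Tnfrsf17 ranged from -1.03 to -0.77 in the spleen and -1.57 to -1.20 in MPC-11, with no edgeR call, and TNFRSF17 from -2.05 to -1.54 in MM.1S, called without empty vector replicate 1 (adjusted p = 8.56e-04) or 2 (adjusted p = 0.0114) and not without either guide library. Tnfrsf13c in MPC-11 ranged from -0.36 to 0.12, above 0 without empty vector replicate 1 (0.12) or guide replicate 2 (0.027), and its spleen minus MPC-11 difference from -0.47 to 0.086, above 0 without empty vector replicate 2 (0.086) or guide replicate 1 (0.049). Where this left 1 library in an arm, that library was assumed to vary like the others. DESeq2 called Tnfrsf17 in MPC-11 (-1.41) and TNFRSF17 in MM.1S (-1.82); the latter also passed without the filter (-1.82). Counts of called genes were the least stable. In the spleen they were 0 with edgeR, 635 with DESeq2 and 5 in 1 fit over all mouse libraries; in MPC-11 2 against 0 by total count, 159 with DESeq2, 32 without the filter, 0 with limma, 6 in the fit over all mouse libraries and 1 to 37 leaving out a library; in MM.1S 1 against 374 with DESeq2, 289 without the filter, 9 with limma and 0 to 966 leaving out a library. Apart from the construction of each alternative, the cause was not tested. Same-numbered libraries hardly deviated together (correlation of -0.01 in the spleen, on log2 FPKM, -0.08 in MPC-11 and 0.09 in MM.1S). So few libraries cannot exclude that the numbers pair them, and the labels leave it open. With the replicate number as a block, edgeR called 0 genes in MPC-11 and 208 in MM.1S, where TNFRSF17 passed (-1.79, adjusted p = 0.0021), and limma on log2 FPKM with the replicate block called 384 in the spleen, 0 in MPC-11 and 409 in MM.1S, where TNFRSF17 passed (-1.77, adjusted p = 5.72e-05). With 2 libraries a group each comparison has 2 residual degrees of freedom. At these depths TNFRSF13C in MM.1S was not detectable below 0.139 to 0.155 CPM.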
